A study of Mus musculus with 6 samples.

Results

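Hox genes lie in the clusters Hoxa, Hoxb, Hoxc and Hoxd, which in the mouse are on chromosomes 6, 11, 15 and 2. They were taken as every gene of the authors' array matrix whose symbol is Hoxa, Hoxb, Hoxc or Hoxd followed by a number, which gave 38 of the 21538 genes with a symbol. There were 11 in Hoxa, 10 in Hoxb, 8 in Hoxc and 9 in Hoxd. They were measured by 50 probes, and each gene was represented by its probe with the highest mean over the 6 columns of the matrix. The cells were medullary thymic epithelial cells (mTECs), thymic cells that make proteins otherwise found in other organs and show them to developing T cells. They were sorted from mice 30 days old, either lacking Mbd1 (KO) or wild type for it (WT), as cells negative for the dye DAPI, with EpCAM and MHC class II and without CD45, CD11c or Ly51. Strain, kind of Mbd1 allele and pooling of mice are not given in the sources used here, and no other allele or treatment is stated for either group. There were 3 KO and 3 WT arrays, 1 sample each, with amplified RNA labelled in Cy3. The authors made 4 biological replicates per group and removed 1 of each.

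Hox proteins bind DNA through the homeodomain, mostly together with Pbx and Meis proteins, and give cells along the head-to-tail axis their identity. Genes with low numbers are switched on first and towards the head, genes with high numbers later and towards the tail, a rule known as collinearity. Hoxa3 acts in the third pharyngeal pouch, from which the thymus forms, and mice without it have no thymus. Polycomb proteins and DNA methylation hold Hox genes silent where they are not used. The protein made by Mbd1 binds CpG sites that carry methylation, so the comparison asks whether Hox genes differ in mTECs without it.

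CpG sites in the stretch upstream of the start are what a methyl-CpG binding protein could meet there, so 3 Hox promoters of differing CpG content are shown. They are the 250 bases before the RefSeq start (build GRCm38.p6), 5′ to 3′ on the gene's strand, with each CpG in capitals. Hoxa3 (chr6:52213068-52213317, minus strand) had the highest KO minus WT difference of the Hox genes tested and 18 CpG sites, Hoxa13 (chr6:52260881-52261130, minus strand) the most CpG sites, 35, and Hoxd4 (chr2:74721728-74721977, plus strand) only 3. The Hoxa3 start used here lies between the starts of Hoxa6 and Hoxa7, upstream of those of Hoxa5 and Hoxa6.
Hoxa3: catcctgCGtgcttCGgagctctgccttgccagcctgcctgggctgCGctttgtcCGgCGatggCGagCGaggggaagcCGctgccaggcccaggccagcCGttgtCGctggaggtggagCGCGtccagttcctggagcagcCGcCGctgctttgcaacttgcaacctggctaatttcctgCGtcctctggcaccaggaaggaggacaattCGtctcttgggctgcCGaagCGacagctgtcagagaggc
Hoxa13: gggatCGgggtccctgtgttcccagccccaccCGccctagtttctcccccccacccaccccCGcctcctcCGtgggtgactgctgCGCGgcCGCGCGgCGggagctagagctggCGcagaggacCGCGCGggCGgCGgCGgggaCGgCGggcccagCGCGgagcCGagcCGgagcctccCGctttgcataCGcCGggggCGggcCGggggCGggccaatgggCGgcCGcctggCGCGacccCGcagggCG
Hoxd4: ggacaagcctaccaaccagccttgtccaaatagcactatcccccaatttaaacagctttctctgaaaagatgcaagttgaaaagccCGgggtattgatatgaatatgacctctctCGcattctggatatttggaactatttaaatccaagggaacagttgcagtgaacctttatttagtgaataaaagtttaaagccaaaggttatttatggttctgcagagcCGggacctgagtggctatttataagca

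RefSeq promoters were at hand for 22 of the 38 genes, 24 in all. They held a median of 12.5 CpG sites (range 2 to 35) in 250 bases, against 12 in the 17034 promoters of genes tested here. The 17 promoters of Hox genes that were well above background on at least 3 arrays had a median of 14, and the 7 of the other Hox genes had 8. The letters TGATTNAT, a motif bound by Hox proteins with Pbx, were searched on both strands. They occurred in 2 of the 24, those of Hoxa2 and of 1 of the 2 Hoxd11 starts. The share was 1.92% in the 17034 promoters of genes tested and 2.82% in all 32851 promoters at hand. None of these counts says whether a site was methylated in these cells.

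Mbd1 itself was checked first. Its probe read 5.64, 5.61 and 5.60 in KO columns 1 to 3, against 8.83, 8.60 and 9.0 in WT columns 1 to 3, in log2 units of the authors' matrix. The KO values lay near the background level, the 95th percentile of 5304 probes never detected (5.50 to 5.67 over the 6 columns). The difference was -3.19 (SE 0.19, limma adjusted p = 5.4e-05). The scanner files under their own titles go the other way. The probe's processed intensity was 356, 17.2 and 682 on the arrays titled KO 1 to 3, against 20.9, 305 and 15.6 on those titled WT 1 to 3. In rank, 5 of the 6 matrix columns equalled a scanner file, 0 of them the file of the same title and 4 of them a file titled with the other genotype. Column KO 1 equalled no file. The columns are therefore called by their names in the matrix, and every direction below rests on those names. Detection on the arrays does not depend on them.

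The sorted cells carried the transcripts of thymic epithelium. All 12 markers on the list, among them Krt5, Krt14, Foxn1 and Aire, were well above background on at least 3 arrays, with a mean level of 12.4 to 12.5 in the KO and 12.5 in the WT columns. Markers of other cells passed the same filter too: 13 of 15 entries for mesenchyme (Postn counted under 2 names), 11 of 12 for T cells and 9 of 9 for blood progenitors. Of all 27804 genes and unnamed probes 77.8% passed it, so these counts alone do not show that such cells were present. Each of those cell types also uses Hox genes, and in a bulk sample fewer cells of a type and less RNA per cell cannot be told apart.

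Most Hox genes gave a signal in the sorted samples that the arrays could see, a share slightly below that of all genes. Signal was well above background for 28 of the 38 on 3 or more arrays (73.7%), against 77.8% of all 27804 genes and unnamed probes. One of the 6 arrays equals no matrix column, and over the 5 that do, 27 genes reached 3 arrays, with 7 in Hoxd in place of 8. For 22 the signal was well above background on all 6 arrays, for 5 on 1 or 2, and for 5 on none. Per array, between 25 and 29 Hox genes were detected.

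The lowest share of detected genes was in Hoxc. Detected on at least 3 arrays were 9 of 11 Hoxa genes, 8 of 10 Hoxb genes, 8 of 9 Hoxd genes and 3 of 8 Hoxc genes. The Hoxc genes detected were Hoxc6, Hoxc9 and Hoxc10, which pattern the trunk and the motor neurons of the limb levels, each on all 6 arrays. Hoxc4 was well above background on 1 array, Hoxc8 and Hoxc12 on 2 each, and Hoxc5 and the hair gene Hoxc13 on none. A silent gene and a poor probe cannot be told apart here. The difference between clusters was not tested, because genes of a cluster are not independent.

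Genes from both ends of the clusters were detected. Numbers 1 to 3, the head end, gave 7 of 8 genes, numbers 4 to 8 gave 10 of 15, and numbers 9 to 13, the tail end, 11 of 15. All 5 Hoxd genes of the tail end were detected, Hoxd9, Hoxd10 and Hoxd13 on 6 arrays, Hoxd11 on 5 and Hoxd12 on 3. So were Hoxa13 and Hoxb13, genes of the digits and genital tract and of the prostate, on all 6. In Hoxa, Hoxa10 and Hoxa11, known from the uterus, were above background on 0 arrays. At the head end Hoxb1, a gene of the hindbrain, was the undetected one.

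**Figure D1:**
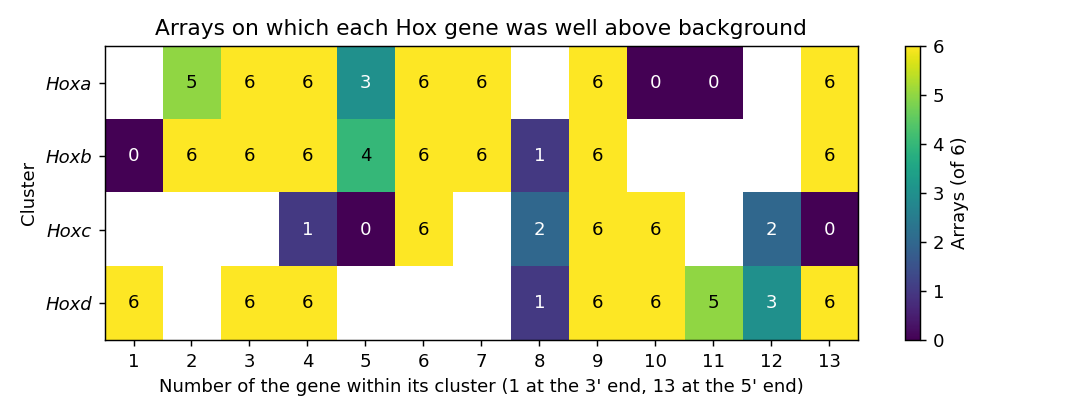
Number of the 6 arrays on which the brightest probe of 37 of the 38 Hox genes was well above background, by cluster (rows) and gene number (columns); white cells show no value. Hoxc holds 5 of the 10 genes detected on fewer than 3 arrays, and detected genes run from number 1 to number 13.

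Between the genotypes, 0 of the 28 Hox genes tested passed. The test was limma on the authors' log2 values with Benjamini-Hochberg adjustment over all 21624 genes kept, threshold 0.05, and 36 genes passed in all (0.166%), 33 higher (0.153%) and 3 lower (0.0139%). The lowest adjusted p among the Hox genes was 0.638. Of the 28, 13 were higher and 15 lower in the KO columns, and their median KO minus WT difference was -0.03 log2, against -0.01 for all genes tested. With 3 columns per group the 95% interval of the difference lay within a 2-fold change in both directions for 25 of the 28. For Hoxb2, Hoxc10 and Hoxd4 it reached a 2-fold lower level. Differences of dim genes are understated in these values. For genes near the background level, such as Hoxa5 (WT mean 5.66), the interval therefore does not exclude a 2-fold change of the transcript. At an unadjusted p of 0.05, 3 of the 28 passed (Hoxa3, Hoxb2 and Hoxb9), where 4.29% of all genes did; 1 of them was higher (2.4% of all genes) and 2 were lower (1.89%) in the KO columns. KO and WT columns did not overlap for 4 of them, where 8.36% of all genes did not. For 1 gene every KO column lay above every WT column (4.27% of all genes) and for 3 every KO column lay below (4.09%).

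Hoxa3, the gene needed to form the thymus, was the one with all KO columns above all WT columns. Its log2 values were 8.84, 8.93 and 8.93 in KO columns 1 to 3, against 8.54, 8.12 and 8.48 in WT columns 1 to 3. The KO columns were tight and the WT columns spread more. Means were 8.90 ± 0.05 and 8.38 ± 0.23 (SD, n = 3 each), and the difference of 0.52 (SE 0.19, 95% interval 0.09 to 0.95) did not pass (limma, adjusted p = 0.948). A second Hoxa3 probe, also detected on all 6 arrays, read 0.37. The transcript Hoxaas2, which overlaps Hoxa3 in RefSeq, read 0.42 (SE 0.28, adjusted p = 0.999). The labels do not say that strand was kept in amplification, so Hoxa3 and its antisense partners cannot be told apart by strand.

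The partners of Hoxa3 with the same number overlapped between groups. Hoxb3 and Hoxd3 act with Hoxa3 in the migration of the thymus. Hoxb3 read 7.75, 8.08 and 7.86 in the KO columns, against 7.61, 8.05 and 7.89 in the WT columns, with the groups overlapping and a difference of 0.05 (SE 0.20). Its other probe read -0.23. Hoxd3 read 7.01, 7.17 and 6.83 in the KO columns, against 6.85, 7.46 and 7.81 in the WT columns, and the groups overlapped, with WT 2 and WT 3 above every KO column. Its difference was -0.37 (SE 0.25, limma adjusted p = 0.999). The other Hoxd3 probe, detected on 3 arrays, read -0.17.

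Hoxb2, which patterns the hindbrain and the facial nerve, had the largest difference of the 28 and lay lower in the KO columns. It read 6.59, 7.06 and 6.52 in KO columns 1 to 3, against 7.90, 7.24 and 7.37 in WT columns 1 to 3. No KO column reached the lowest WT column, and WT 1 was the highest of all by 0.53. Means were 6.73 ± 0.29 and 7.50 ± 0.35 (SD, n = 3 each), a difference of -0.77 (SE 0.24, 95% interval -1.30 to -0.25) that did not pass (limma, adjusted p = 0.638). Without column WT 1 it was -0.58. The other Hoxb2 probe was detected on 0 arrays.

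Hoxb7 and Hoxb9, of the trunk part of the same cluster, were the other 2 genes without overlap. Hoxb9, which patterns the rib cage, read 8.28, 8.27 and 8.08 in the KO columns, against 8.51, 8.82 and 8.79 in the WT columns, 3 columns each. The difference was -0.50 (SE 0.19, limma adjusted p = 0.982), and every KO column lay below the lowest WT column. The other Hoxb9 probe, detected on all 6 arrays, read -0.02, so the probes disagreed. Hoxb7 read 6.55, 6.35 and 6.34 in the KO columns, against 6.57, 7.20 and 6.86 in the WT columns. Column WT 1 lay barely above the highest KO column, and the difference was -0.47 (SE 0.21, adjusted p = 0.999).

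**Figure D2:**
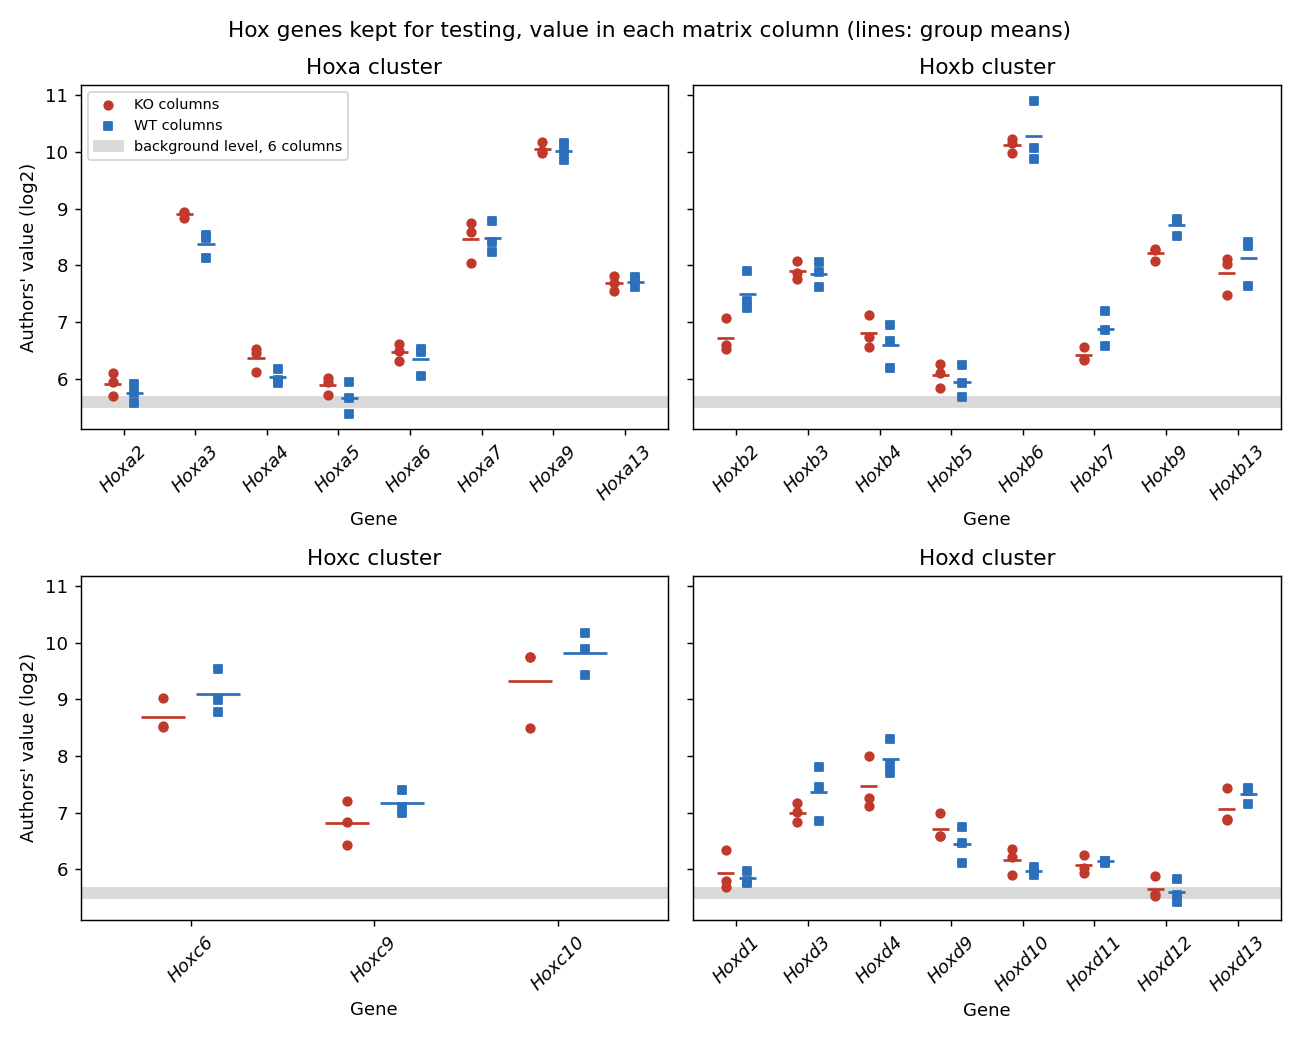
Authors' log2 values of 27 of the 28 Hox genes detected on at least 3 arrays, in KO columns (circles, left of each gene) and WT columns (squares, right), 3 points and a mean line per group; the grey band is the background level, 5.50 to 5.67. Hoxa3 is the gene with all KO points above the WT points, and Hoxb2, Hoxb7 and Hoxb9 have all KO points below them; heights of different probes are not comparable.

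Within Hoxa, the genes next to Hoxa3 had positive differences that overlapped between groups. Hoxa4, a gene of the neck vertebrae, read 6.12, 6.46 and 6.52 in the KO columns, against 5.98, 6.17 and 5.93 in the WT columns. Only KO 1 lay within the WT range, and the difference was 0.34 (SE 0.20), with 0.34 at its other probe too. Hoxa2, of the second pharyngeal arch, read 0.17 (SE 0.20), Hoxa5, of the lung, 0.23 (SE 0.21), and Hoxa6 0.12 (SE 0.20). Hoxa2 and Hoxa5 lay near the background level, with WT means of 5.74 and 5.66, and were detected on 5 and 3 arrays. In RefSeq the span of Hoxa3 overlaps Hoxa4, Hoxa5 and Hoxa6, and 14 of the 38 genes overlap another Hox gene or a Hox antisense transcript, so their signals may be shared.

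Further towards the tail end Hoxa differed little between groups. Hoxa9, a gene of blood stem cells and of leukaemia, read 10.02, 10.17 and 9.99 in the KO columns, against 9.86, 10.16 and 10.02 in the WT columns. The groups overlapped, and the difference was 0.04 (SE 0.19, 95% interval -0.37 to 0.46). Hoxa7 read 8.75, 8.05 and 8.58 in the KO columns, against 8.42, 8.78 and 8.23 in the WT columns, a difference of -0.02 (SE 0.24). Hoxa13 read 7.69, 7.54 and 7.81 in the KO columns, against 7.79, 7.61 and 7.74 in the WT columns, a difference of -0.03 (SE 0.19). In all, 6 of the 9 Hoxa genes were higher and 3 lower, with a median of 0.12.

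In Hoxb, 3 of 8 genes were higher and 5 lower, with a median of -0.21. Hoxb4, which expands blood stem cells, read 6.55, 6.73 and 7.13 in the KO columns, against 6.66, 6.94 and 6.19 in the WT columns. The groups overlapped widely, and the difference was 0.21 (SE 0.24). Hoxb5 read 0.12 (SE 0.22). Hoxb6 read 10.17, 10.23 and 9.98 in the KO columns, against 10.91, 9.88 and 10.06 in the WT columns, where WT 1 alone was high. Its difference was -0.16 (SE 0.26), and its other probe read 0.17. Hoxb13, a gene of the prostate, read 8.03, 8.11 and 7.48 in the KO columns, against 7.63, 8.33 and 8.42 in the WT columns, a difference of -0.25 (SE 0.26).

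All 3 Hoxc genes tested had negative differences, none of which passed, with a median of -0.41. Hoxc6 read 8.53, 8.52 and 9.02 in the KO columns, against 9.53, 8.99 and 8.78 in the WT columns, a difference of -0.41 (SE 0.24). Hoxc9 read 7.20, 6.84 and 6.42 in the KO columns, against 7.10, 7.0 and 7.40 in the WT columns, a difference of -0.34 (SE 0.23). Each overlapped between groups. Hoxc10, a gene of the hindlimb level, read 9.75, 9.75 and 8.49 in the KO columns, against 9.42, 9.88 and 10.17 in the WT columns. Column KO 3 lay 0.93 below the next column and carried the difference of -0.49 (SE 0.34), which was -0.07 without it. The other Hoxc10 probe read -0.39.

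In Hoxd, 4 of 8 genes were higher and 4 lower, with a median of -0.01. Hoxd4, of the neck vertebrae, read 7.27, 7.12 and 8.01 in the KO columns, against 8.30, 7.70 and 7.86 in the WT columns, a difference of -0.49 (SE 0.27, adjusted p = 0.999). KO 3 lay inside the WT range. Hoxd13, which shapes the digits, read 7.44, 6.88 and 6.89 in the KO columns, against 7.16, 7.45 and 7.39 in the WT columns, a difference of -0.26 (SE 0.22). Hoxd9 read 6.59, 6.58 and 7.0 in the KO columns, against 6.47, 6.74 and 6.11 in the WT columns, a difference of 0.28 (SE 0.22), with -0.08 at its other probe. Hoxd1 (0.10), Hoxd10 (0.19), Hoxd11 (-0.07) and Hoxd12 (0.05) had SE of 0.19 to 0.22.

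**Figure D3:**
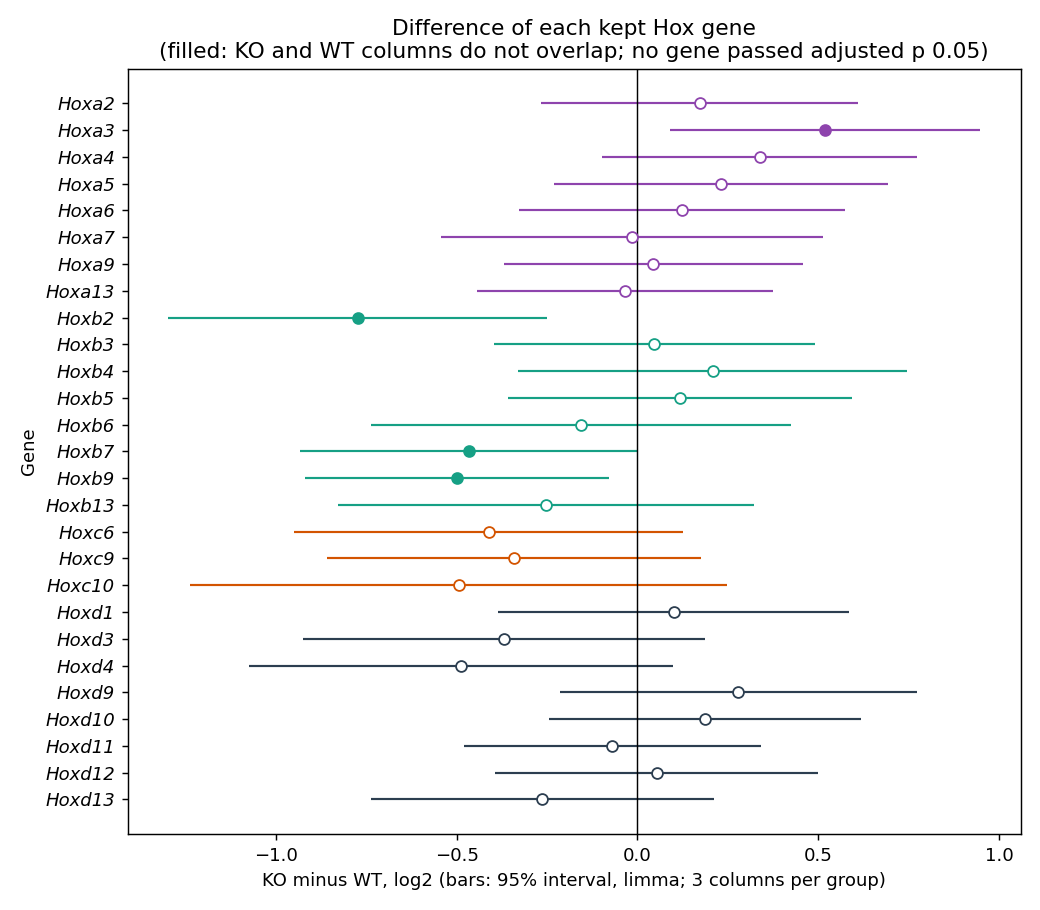
KO minus WT difference (log2) of 27 of the 28 Hox genes tested, with 95% intervals from limma, in order of cluster and gene number; filled points are genes whose KO and WT columns do not overlap. Intervals of Hoxa3, Hoxb2 and Hoxb9 leave out 0, and no gene passed after adjustment.

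The 10 genes below the filter had differences between -0.46 and 0.10 when all probes were fitted, and 0 passed. Hoxc4 and Hoxb8 gave the lowest values through 1 column. Hoxc4 read 5.57, 5.53 and 5.60 in the KO columns, against 7.17, 5.61 and 5.30 in the WT columns. Hoxb8 read 5.31, 5.46 and 5.68 in the KO columns, against 6.57, 5.64 and 5.53 in the WT columns. In both, WT 1 alone was clearly above background. The scanner array that equals column WT 1 was also the only array on which either was well above background.

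Of the 28 genes tested, KO 3 was the highest column in 10 and the lowest in 8 (23.9% and 22.3% of all genes), and WT 1 the highest in 5 and the lowest in 5 (20.5% and 22.3%). In 6 of the 38 genes WT 1 exceeded the next highest column by more than 0.5 log2, among them Hoxb2, Hoxb6, Hoxb8, Hoxc4 and Hoxc6, which happened in 0 Hox genes for each of the other 5 columns. Of these 6, 4 were among the 28 tested, where 2.07% of all genes tested had such a gap at WT 1. Mesenchyme markers averaged 8.86, 8.88 and 9.12 in KO columns 1 to 3, against 9.09, 8.74 and 8.98 in WT columns 1 to 3, so WT 1 and KO 3 were highest. The same 2 columns were highest in 3 of the 28 Hox genes (Hoxa13, Hoxc6 and Hoxd4), where 12.97% of all genes had them highest. Columns WT 1 and KO 3 were not highest for mesenchyme alone. They were also highest for the thymic epithelium markers (12.54 and 12.51). So they were for the Polycomb genes (8.65 and 8.57) and the pharyngeal pouch genes (8.71 and 8.76) listed below. The part of mesenchyme in the Hox values was not tested. T cell markers were higher in the KO columns for 10 of 11 members, with a mean level of 8.39 to 8.72 in KO columns and 7.77 to 8.14 in WT columns; 0 passed over all genes. Rag2 was detected on 0 arrays, while Dntt and Cd8b1 differed by 0.91 and 0.97. Blood progenitor markers had a median difference of 0.00, with a mean level of 8.15 to 8.31 in KO columns and 8.25 to 8.40 in WT columns. Endothelial markers were higher for 7 of 8 (median 0.23), B and plasma cell markers for 6 of 10 (0.10), and dendritic cell and macrophage markers for 7 of 10 (0.17), with Siglech detected on 0 arrays. Among the plasma cell markers Igj, the joining chain of antibodies, read 7.42, 9.60 and 7.99 in the KO columns, against 6.50, 6.29 and 6.99 in the WT columns, without overlap (1.74, SE 0.45, adjusted p = 0.360), and 2010001M09Rik (now Mzb1) differed by 0.56, also without overlap. Xbp1 and Sdc1, plasma cell genes of the same list, read -0.21 and -0.15, with the groups overlapping. The part of the other cell types in the Hox values was not tested.

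**Figure D4:**
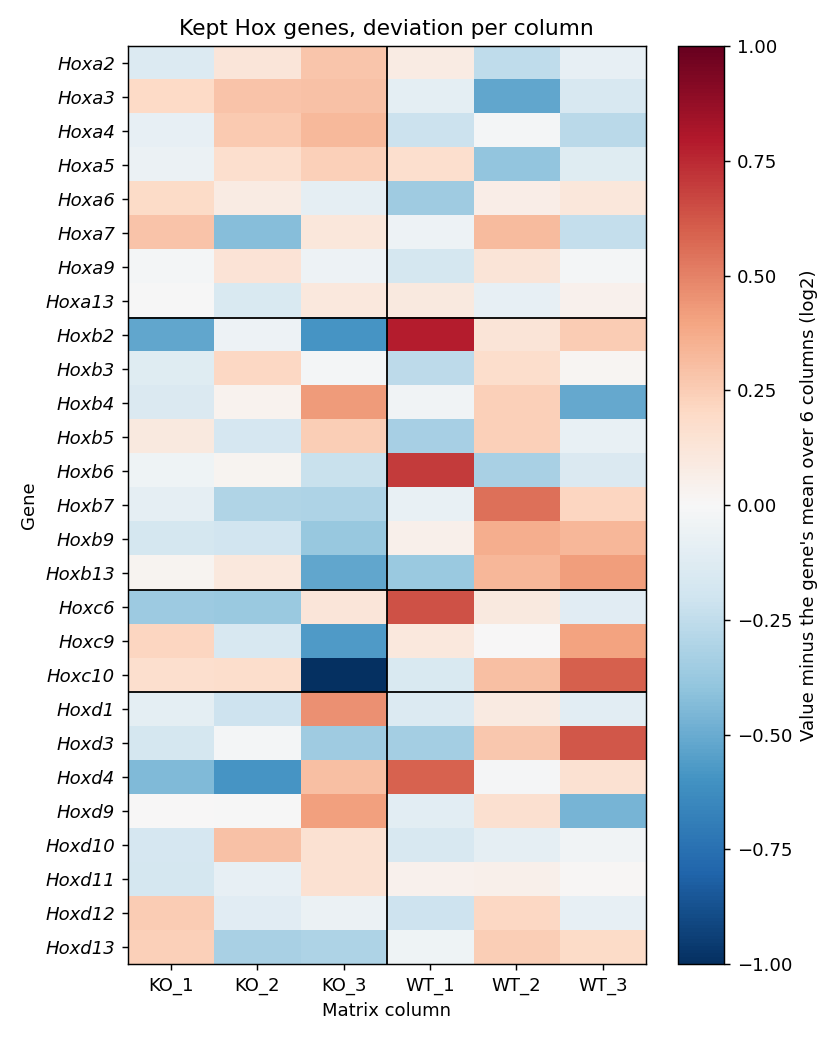
For 27 of the 28 kept Hox genes, the value minus the gene's mean over the 6 columns (log2), KO columns left of the line and WT columns right; black lines separate the clusters. The strongest positive cells stand in WT 1 (Hoxb2, Hoxb6 and Hoxc6) and the strongest negative cell is Hoxc10 in KO 3.

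The slide was known for 5 columns. On slide 1 lay KO 2, KO 3 and WT 1, while slide 2 held WT 2 and WT 3, so a comparison within a slide rests on WT 1. There 15 of the 28 genes were higher in the KO columns, with a median of 0.08. Hoxa3 read 0.39, Hoxb2 -1.10, Hoxb7 -0.23 and Hoxb9 -0.34 there. Their KO and WT columns did not overlap, so the sign within the slide could not differ from that over all columns. Hoxd3 read 0.15 and Hoxb13 0.17 there, opposite to their sign over all columns.

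Genes that work with Hox genes did not pass either. Of 9 Pbx, Meis and Pknox genes measured, the cofactors that bind DNA with Hox proteins, 8 were kept. Of these 5 were higher and 3 lower, with a median of 0.06. Pbx2 read 0.25, while Pbx4 read -0.22 and Pknox1 -0.15. The Cdx genes activate Hox genes of the trunk in the embryo. All 3 were detected, and Cdx4 read 6.55, 7.21 and 6.79 in the KO columns, against 6.47, 5.93 and 6.51 in the WT columns, without overlap (0.55, SE 0.24, adjusted p = 0.999). Cdx1 read 0.18 and Cdx2 -0.18.

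Chromatin regulators of Hox genes were split. Of 15 trithorax and related activators 8 were higher and 7 lower (median 0.00), with Mll2 (now Kmt2d), a histone methyltransferase, at 0.29 and Ash2l at 0.19. Of 25 Polycomb genes kept (26 measured), 11 were higher and 14 lower (median -0.04). Mtf2, a recruiter of Polycomb complex 2, read 9.61, 9.92 and 9.40 in the KO columns, against 9.09, 9.02 and 9.30 in the WT columns (0.51, SE 0.20, adjusted p = 0.999). Rbbp7, a histone-binding protein of that complex, read -0.44 (SE 0.20), and Ring1, of Polycomb complex 1, 0.25 (SE 0.18). Cbx7, which reads a Polycomb histone mark, differed by -0.54. KO and WT columns did not overlap for 5 of the 25 Polycomb genes, where 8.36% of all genes did not: Mtf2, Ring1 and Rnf2 lay above in the KO columns, and Rbbp7 and Cbx2 below. None of the genes on either list passed.

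Retinoic acid, a vitamin A product, switches on Hox genes of the head end. Of 16 genes of its pathway kept (17 measured), 10 were higher and 6 lower, with a median of 0.04 and 0 passing. The receptor Rarb read 6.28, 6.62 and 6.61 in the KO columns, against 6.86, 7.07 and 7.01 in the WT columns, without overlap (-0.48, SE 0.19, adjusted p = 0.999). Rxrg, its partner receptor, read 0.53 (SE 0.23), and the retinal reductase Dhrs3 -0.30. Among 13 genes kept (14 measured) of the pharyngeal pouch network around Hoxa3, 8 were higher and 5 lower (median 0.04, 0 passing). Tbx1 read 0.32 and Bmp4 0.30, and Shh read -0.30.

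The genes that flank the clusters did not pass. Of 16 neighbours 6 were higher and 10 lower (median -0.03). Skap2, which flanks Hoxa, read -0.21, Skap1, beside Hoxb1, 0.66 (SE 0.34), Ttll6, beside Hoxb13, -0.24, and Snx11 0.39. Of the 4 noncoding transcripts of the clusters that were measured, Hoxaas2 was detected on all 6 arrays, and Hoxaas3, Hoxd3os1 and Hottip on 0.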

How the data were processed

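The authors deposited scanner files of intensity values per spot, made with Agilent's Feature Extraction, given as version 10.6 in the submitters' processing notes but as 10.7.3.1 per the file headers. The processed signal was background-subtracted within the array. The authors' deposited matrix holds log2 values per probe in 6 columns; the method is not given in the sources used here. It also holds the authors' log2 difference, linear fold (a ratio), p-values and a score, not used here. The columns matched to an array follow its median spot signal in rank, without background subtraction, so differences of dim genes are understated.

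Each array held 43379 spots of 41174 probes, 0 saturated; 397 to 1306 outlier spots per array were left out. A gene was its probe of highest mean over the 6 columns, kept if well above background on at least 3 arrays. Of the 12 Hox genes with 2 probes, 6 had probes whose KO minus WT differences were of opposite sign, undetected probes included. Unnamed probes counted singly, and 6266 probes had no symbol. A probe with only outlier spots on an array counted as not detected there, so bright genes can miss the filter. Mrg1 (now Meis2), Rbbp4 and Crabp1 (1 array each) and Eya1 (2 arrays) were left out, with KO means of 12.7, 12.6, 12.8 and 13.0. KO and WT columns were compared in R 4.3.3 with limma 3.58.1 (lmFit, then eBayes). The fit was tested on simulated data with planted changes of 2 or 3 log2 in either direction. These were larger than any Hox difference here, so that test does not show how well small changes are found. Replicate numbers come from the column names; p-values measure the spread between these samples. Named genes were Mbd1, every Hox gene kept, and up to 4 genes of smallest p per list; a few of these are not reported here. The members, lists and tests were chosen with earlier results of these data known. The normexp alternative used median spot signals, since the files hold no mean signal. The number of arrays limits precision.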

Additional observations from a re-analysis of the deposited data

How the results depend on the processing

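The count of Hox genes passing was 0 under every one of the 14 alternatives run, with 1 to 5 Hox genes at an unadjusted p of 0.05. The count of all genes passing was 36; it was 19 with no filter on dim probes, 22 with detection on all 6 arrays, 62 with the replicate block, 0 with the slide as a block over 5 columns (1454 at an unadjusted p of 0.05) and 0 with the scanner files under their titles by either processing (893 and 639 at an unadjusted p of 0.05). Leaving out a column gave 17 (without WT 2) to 56 (without KO 3). The median Hox difference lay between -0.08 and 0.01 when a column was left out, and was -0.096 over the 22 genes detected on all 6 arrays, 0.077 with the slide block and 0.26 (processed signal) or 0.091 (normexp and quantile) with the scanner titles. The replicate numbers do not pair the columns: same-numbered KO and WT columns had correlations of -0.28, -0.17 and -0.33 between their deviations. Detected Hoxc genes numbered 6 when 1 array sufficed.

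Under the scanner titles most signs turned, and 4 of the 5 matched columns carry the other genotype there. Mbd1 read 1.59 with the processed signal and 0.86 with normexp. With the processed signal, these turned among the genes reported: Hoxa2 -0.76, Hoxa3 -0.41, Hoxa5 -1.36, Hoxa7 0.46, Hoxa13 0.25, Hoxb2 0.27, Hoxb7 0.98, Hoxb9 0.45, Hoxb13 0.53, Hoxc6 0.22, Hoxc9 0.66, Hoxc10 0.59, Hoxd3 0.79, Hoxd4 0.26, Hoxd9 -0.090, Hoxd11 0.24 and Hoxd13 0.64. With normexp and quantile normalization, these did: Hoxa2 -0.18, Hoxa3 -0.42, Hoxa4 -0.13, Hoxa5 -0.31, Hoxa7 0.35, Hoxa13 0.12, Hoxb2 0.065, Hoxb5 -0.0093, Hoxb7 0.47, Hoxb9 0.31, Hoxb13 0.35, Hoxc6 0.16, Hoxc9 0.30, Hoxc10 0.46, Hoxd3 0.43, Hoxd4 0.17, Hoxd9 -0.11, Hoxd10 -0.065, Hoxd11 0.054 and Hoxd13 0.37. The mean over probes turned Hoxb3 -0.093 and Hoxb6 0.0061, and the slide block turned Hoxb13 0.17 and Hoxd3 0.15. Leaving out a column turned 9 genes with small differences, over these ranges: Hoxa6 -0.026 to 0.21, Hoxa7 -0.16 to 0.19, Hoxa9 -0.033 to 0.12, Hoxa13 -0.097 to 0.035, Hoxb3 -0.073 to 0.15, Hoxb5 -0.021 to 0.26, Hoxb6 -0.36 to 0.15, Hoxd1 -0.10 to 0.23 and Hoxd12 -0.059 to 0.17. Outside the scanner titles, 16 of the 27 genes never turned, 13 of them run under all 12 alternatives and 3 under 11. Several of these alternatives could not turn a sign. The changed detection filters, the trend and robust moderation and the replicate block left each difference as it was. So did the mean over probes for genes with 1 kept probe. Leaving out a column could not turn a gene whose KO and WT columns did not overlap. Dim genes are limited by background, and the cause of these changes was not tested.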
